A study of Rattus norvegicus with 6 samples.

Results

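The miR-181 family was read from kidney microarrays of control rats and rats given aristolochic acid (AA), a plant nephrotoxin and carcinogen. The members were the probes whose rat name is rno-miR-181a, rno-miR-181b, rno-miR-181c or rno-miR-181d, which made 4 of the 5560 miRNA probes on the array, and 4 of the 679 probes with a rat name. Probes for passenger strands, whose names end in an asterisk, were kept apart. All 6 rats were male Big Blue transgenic animals of the Fisher 344 strain, 6 weeks old at the start, and each rat gave 1 array. The 3 control rats, replicates 13, 14 and 15, were untreated. The 3 AA rats, replicates 19, 20 and 21, received the sodium salt by gavage at 10.0 mg/kg, with 5 doses a week for 12 weeks, and were sacrificed 1 day after dosing ended. Whole kidney tissue was used, so fewer cells of a type and less RNA per cell cannot be told apart in any value below.

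A miRNA guides silencing complexes to messenger RNAs, and its seed, the bases near the 5′ end, does most of the pairing. The miR-181 miRNAs share 1 seed and are made from paired genes at 3 places in the genome, each a tandem of an a-type or c-type and a b-type or d-type hairpin. They are best known from blood cell development, where miR-181a tunes the sensitivity of the T cell receptor in thymocytes, and members have also been studied in vascular inflammation and in many tumours. The array was built to look again at rat miRNAs found by sequencing of AA and control kidneys. The comparisons made here are whether each member differed between AA and control kidneys, and whether the paralogs moved alike.

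The target sequences of the 4 probes are shown because the paralogs differ by so little. Each is written 5′ to 3′ with the seed, bases 2 to 8, in capitals.

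miR-181a: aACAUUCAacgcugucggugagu
miR-181b: aACAUUCAuugcugucggugggu
miR-181c: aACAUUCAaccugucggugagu
miR-181d: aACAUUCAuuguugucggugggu

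All 4 carry the seed ACAUUCA. The closest pair of equal length was miR-181b and miR-181d, which differ by C12U, with positions counted from 1 at the 5′ end of the first-named sequence. Between miR-181a and miR-181b the changes are A9U, C10U and A21G, and between miR-181a and miR-181d they are A9U, C10U, C12U and A21G. miR-181c is 22 bases long where the others have 23, and 1 edit separates it from miR-181a. It stands 4 edits from miR-181b and 5 from miR-181d.

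All 4 sequences matched rat miRNAs in RefSeq on GRCr8. The miR-181a sequence lies in Mir181a-1 at chr13:52037081-52037103 and in Mir181a2 at chr3:43025601-43025623, both on the plus strand. The miR-181b sequence lies in Mir181b1 at chr13:52037263-52037285 and in Mir181b2 at chr3:43026680-43026702. The miR-181c sequence lies in Mir181c at chr19:40888314-40888335, and miR-181d in Mir181d at chr19:40888484-40888506. The mature sequences of Mir181a-1 and Mir181b1 are 159 bases apart, inside a long non-coding RNA gene between Nr5a2 and Ptprc. Those of Mir181a2 and Mir181b2 are 1056 bases apart, inside the span of Nr6a1, a nuclear receptor gene, and of a long non-coding RNA. Those of Mir181c and Mir181d are 148 bases apart, between Zswim4 and Nanos3. Since 2 genes make the same mature miR-181a, and 2 the same miR-181b, these probes cannot say which locus a signal came from.

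The labelled tissue was checked first. Of 5 kidney epithelium miRNAs, 4 reached an intensity of 32, the study's limit for an expressed miRNA, on all 6 arrays of the authors' deposited table, and miR-204 did so on none. Their summed intensity lay between 5429 and 6257 on the control arrays and between 5039 and 6340 on the AA arrays. Of 4 leukocyte miRNAs with a rat probe, miR-150 reached 32 on all arrays, while the defining markers miR-142-3p, miR-142-5p and miR-223 reached it on none. The leukocyte sum was 323 to 525 on control and 516 to 576 on AA arrays. It was mostly miR-150, at 313 to 511 on control and 496 to 562 on AA arrays. Of 3 muscle miRNAs, miR-206 reached 32 on all 6 arrays, and miR-1 and miR-133a on none. miR-206 ran from 66.1 on AA replicate 19 to 599 on AA replicate 20. The endothelial miR-126 reached 32 on all 6 arrays. The erythroid miR-451 did so on 4, and the erythroid miR-144 and the brain miRNAs miR-124 and miR-9 on none. The array of AA replicate 20 stood apart. It gave 15191 for miR-122, the main liver miRNA, against 8.17 to 48.5 on the other arrays, and the share of tested probes well above background was 66.8% on it against 84.9% to 97.9% elsewhere. On it miR-30a was 439 against 1532 to 1980 on the other arrays, and miR-194 was 264 against 432 to 802, so the summed level of the kidney miRNAs hides low values of single members. The labels call the sample kidney, and whether it held other tissue was not tested. Its part in the results below was not tested either, and the changes of the members, of the pairs and of the lists are given with and without this array.

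The miR-181 probes were within the measurable range of most arrays. A probe was taken as well above background where the mean of its spots passed the median of the empty spots by 3 robust SDs. All 4 probes did so on all control arrays and on AA replicates 19 and 21, and miR-181a also did on AA replicate 20. miR-181b, miR-181c and miR-181d were not well above background on AA replicate 20, so 21 of 24 values were above it. This describes these probes and does not settle whether the miRNAs were present. On AA replicate 20, some probes of other species built on the same targets passed and some did not. Above the empty spots on the scanner scale, ggo-miR-181b was 56.7, mdo-miR-181b 33.5, ssc-miR-181d-5p 21.1 and bta-miR-181c 16.8, and these passed. bta-miR-181c did so narrowly, with a scanner mean of 89.85 against a limit of 89.35. cfa-miR-181c, which holds the whole miR-181c target, was 6.0 and cfa-miR-181b, a shortened miR-181b target, 3.9, and neither passed. The rat probes were 13.4 for miR-181b, 14.5 for miR-181d and 11.8 for miR-181c. The 2 spots of a member probe differed by a median of 0.26 and at most 0.98 on the log2 scale. Background was still in these scanner values, which narrows the gap for dim probes. The number of arrays and the signal over background limit the precision of all values.

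No member passed the test between AA and control. Each probe was fitted with limma on quantile-normalized log2 signal, with Benjamini-Hochberg adjustment over 1132 tested probes, and all 4 members were among those tested. Of all tested probes, 2 (0.177%) had an adjusted p below 0.05, against 0 of 4 members. At an unadjusted p below 0.05 it was 56 probes (4.95%) and again 0 members. The AA and control arrays did not overlap in 113 probes (9.98%), and they overlapped in all 4 members. The AA mean was below the control mean for 3 of 4 members, against 54.2% of all probes, whose median change was -0.05. With 3 rats a group the intervals were wide, and the miR-181b interval reached from a fall to 0.293 of control up to 1.30 times control.

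miR-181a, the member with the best known role in T cells, had a normalized log2 signal of 9.70, 9.46 and 10.10 on control replicates 13, 14 and 15. It had 9.70, 8.89 and 10.15 on AA replicates 19, 20 and 21. AA replicate 20 was the lowest of the 6 arrays and AA replicate 21 the highest, so the control range lay inside the AA range. The group means were 9.75 ± 0.32 and 9.58 ± 0.64 (SD, n = 3 each). The log2 change was -0.17 (SE 0.38, 95% interval -1.07 to 0.73, limma adjusted p = 0.921). Without AA replicate 20 the change turned to 0.18 (95% interval -0.54 to 0.89). In the authors' table its normalized intensity was 756, 623 and 940.2 in control and 684, 472 and 937 in AA kidneys, with AA replicate 20 again the lowest.

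miR-181b is transcribed together with miR-181a at both of its loci. In the same order of rats, its normalized log2 signal was 8.28, 7.95 and 7.77 in control and 8.09, 6.35 and 7.48 in AA kidneys. AA replicates 20 and 21 were below every control array, and AA replicate 19 was within the control range. The means were 8.001 ± 0.26 and 7.30 ± 0.88 (SD, n = 3 each), a log2 change of -0.70 (SE 0.46, 95% interval -1.77 to 0.37, limma adjusted p = 0.885). It was -0.25 (95% interval -0.998 to 0.50) without AA replicate 20, the array with the liver miRNA. Without AA replicate 19 it was -0.95, with a limma adjusted p of 0.400 (0.042 before adjustment, as was below 0.05 for 11.4% of all tested probes). Both remaining AA arrays were then below all controls, as held for 16.5% of all tested probes. In the authors' table miR-181b had intensities of 236, 179.8 and 149 in control and 206.3, 19.2 and 98.5 in AA kidneys.

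**Figure D1:**
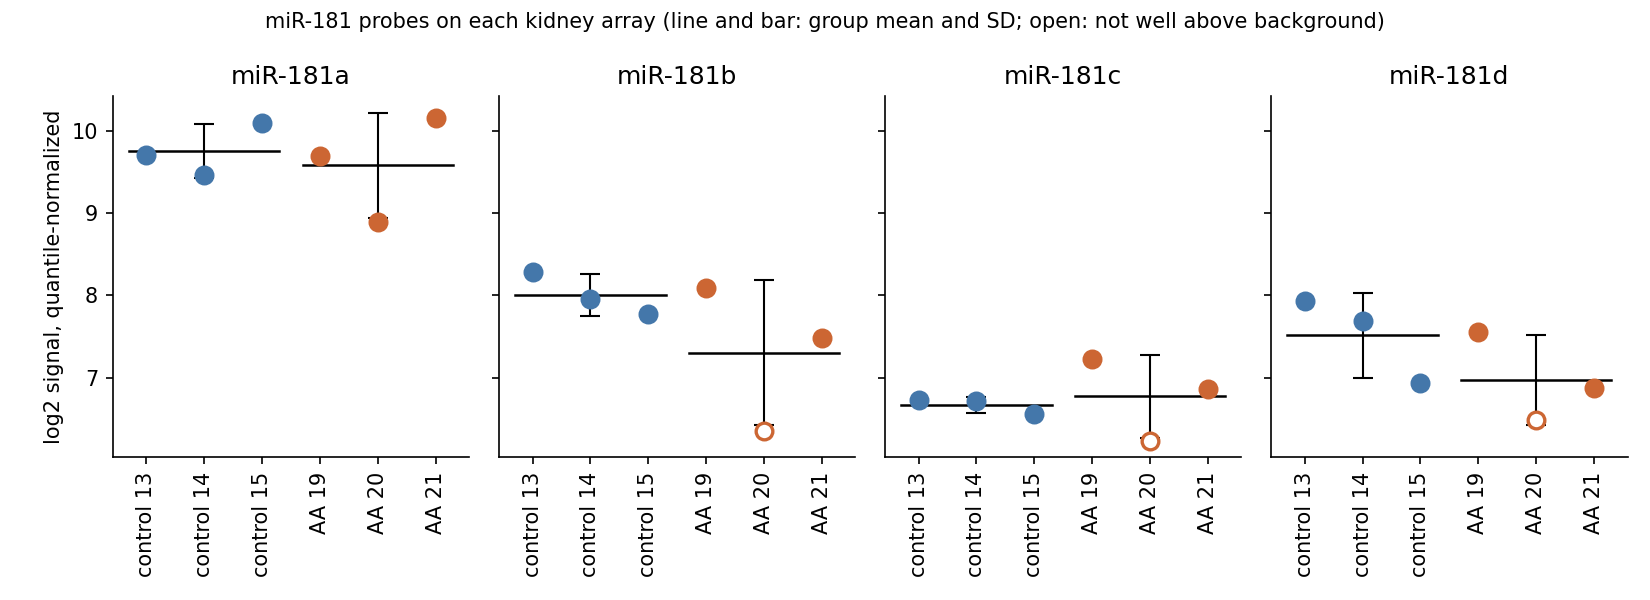
Normalized log2 signal of the 4 miR-181 probes (y axis) on each of the 6 arrays (x axis), with 1 rat per point, control in blue and AA in orange. Horizontal lines are group means, bars are SDs, and open points were not well above background. AA 20 is the lowest array in all 4 panels, and no panel separates the groups.

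miR-181c comes from the cluster on chromosome 19, and its probe was close to background. Its normalized log2 signal was 6.72, 6.72 and 6.56 in control and 7.23, 6.23 and 6.87 in AA kidneys. AA replicates 19 and 21 were above all controls and AA replicate 20 was below them all. The control arrays were tight, at 6.67 ± 0.09, and the AA arrays were not, at 6.77 ± 0.51 (SD, n = 3 each). The log2 change was 0.11 (SE 0.32, 95% interval -0.64 to 0.85, limma adjusted p = 0.936). Without AA replicate 20 it was 0.44 (95% interval -0.13 to 1.02, limma adjusted p = 0.657). The AA arrays then lay above all controls, as they did for 17.8% of all tested probes. Without AA replicate 19 the change was -0.11. In the authors' table it had 36.6, 38.0 and 32.4 in control and 85.8, 8.27 and 44.8 in AA kidneys, close to the limit of 32 in every control.

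miR-181d, the partner of miR-181c on chromosome 19, had a normalized log2 signal of 7.92, 7.68 and 6.93 on control replicates 13, 14 and 15. It had 7.56, 6.48 and 6.88 on AA replicates 19, 20 and 21. AA replicates 20 and 21 were below every control array, but control replicate 15 was only just above AA replicate 21. The means were 7.51 ± 0.52 and 6.97 ± 0.55 (SD, n = 3 each), a log2 change of -0.54 (SE 0.40, 95% interval -1.47 to 0.39, limma adjusted p = 0.885). It was -0.34 (95% interval -1.36 to 0.68) without AA replicate 20. Without control replicate 15 it was -0.86, and the AA arrays were below the remaining controls, as held for 13.4% of all tested probes. In the authors' table it had 158, 133.3 and 60.7 in control and 116, 21.5 and 44.0 in AA kidneys.

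Array quality weights, which give less weight to arrays that fit poorly, moved miR-181a to 0.42 and miR-181d to -0.72. The limma p for miR-181d was then 0.0197 unadjusted, as was below 0.05 for 21.5% of all tested probes, and 0.145 adjusted. AA replicate 20 had the lowest weight, 0.12, against 0.45 to 5.17 for the other arrays.

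**Figure D2:**
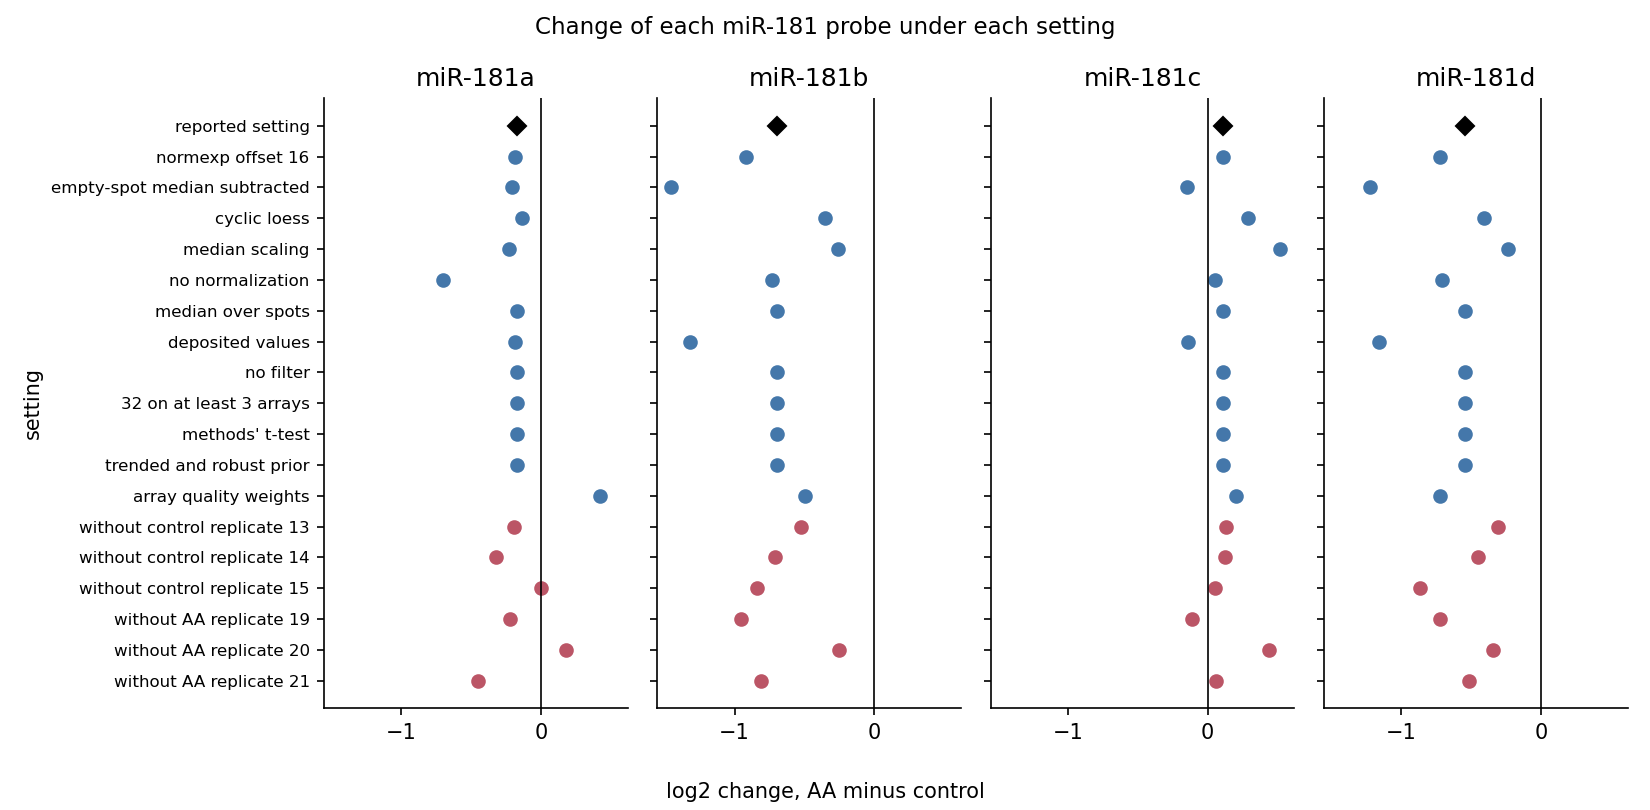
Log2 change from control to AA of each member (x axis) under the reported setting (diamond), each other processing or test setting (blue) and each leave-one-out fit (red). miR-181b and miR-181d stay below 0 throughout, while miR-181a and miR-181c have points on both sides of 0.

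The paralogs were then compared on the same array. This removes a shift common to all probes of an array, but not one that varies with signal. The difference in normalized log2 signal between 2 member probes was taken on each array for all 6 pairs, and AA was compared with control by an exact two-sided permutation test. With 3 arrays against 3 the smallest p that this test can give is 0.1, so no pair could reach 0.05. The size of a difference in 1 group is not a ratio of molecules.

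On AA replicate 20 the probes of miR-181b, miR-181c and miR-181d were all not well above background. A difference between any of them on that array is therefore one between values near background. A difference between miR-181a and any of them there subtracts such a value. For miR-181a minus miR-181b it was 2.55, but 0.81 under median scaling and 4.88 with the empty-spot median subtracted. For all pairs the values without AA replicate 20 are the ones to read.

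The difference miR-181b minus miR-181c was 1.56, 1.23 and 1.21 in control kidneys and 0.86, 0.12 and 0.61 in AA kidneys, in replicate order. The mean went from 1.33 ± 0.19 to 0.53 ± 0.38 (SD, n = 3 each), a change of -0.81 (exact permutation p = 0.1, 0.3 after adjustment over the 6 pairs). Without AA replicate 20 the change was -0.69 (exact permutation p = 0.2, the smallest that 2 arrays against 3 can give, adjusted 0.6), and AA replicates 19 and 21 were both below all controls. Of the 12 alternatives that could move it, all kept its sign, from -1.31 to -0.64. The groups did not overlap in 10, which include every fit that left out an array. Groups that are already apart can hardly overlap after an array is taken out, so those fits add little. The groups overlapped under median scaling and with no normalization. Only the fit without AA replicate 20 leaves out its values near background.

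The difference miR-181c minus miR-181d was -1.20, -0.96 and -0.37 in control kidneys and -0.33, -0.25 and -0.01 in AA kidneys. AA replicates 19 and 21, which were well above background for both probes, were above all control arrays. Control replicate 15 and AA replicate 19 lay close together. The mean went from -0.85 ± 0.43 to -0.20 ± 0.17 (SD, n = 3 each), a change of 0.65 (exact permutation p = 0.1, 0.3 after adjustment). It was 0.78 without AA replicate 20 (exact permutation p = 0.2, adjusted 0.6). The change stayed above 0 in the same 12 alternatives, from 0.44 to 1.08. The groups did not overlap in 8 of them, which again include every fit that left out an array. They overlapped under cyclic loess, under median scaling, with no normalization and on the deposited values. miR-181c and miR-181d lie next to each other in the genome and are read by probes 5 edits apart.

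Groups without overlap were common for such differences. Over all 16110 pairs of tested rat-named probes, 14.2% did not overlap between AA and control, against 2 of the 6 pairs here, and the 6 pairs share their probes. Without AA replicate 20 it was 29.8% of all pairs, against the same 2 of 6. Both pairs without overlap hold miR-181c, which ran from 8.27 to 85.8 in the authors' table.

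The other 4 pairs overlapped. miR-181a minus miR-181b was 1.43, 1.51 and 2.33 in control and 1.61, 2.55 and 2.67 in AA kidneys, a change of 0.52 (exact permutation p = 0.2, adjusted 0.4). The hairpins of this pair lie side by side at both of their loci. miR-181a minus miR-181d changed by 0.37 and miR-181a minus miR-181c by -0.28 (exact permutation p = 0.5 and adjusted 0.6 for both). miR-181b minus miR-181d, the pair that differ by 1 base, changed by -0.16 (exact permutation p = 0.7, adjusted 0.7), from 0.49 ± 0.31 to 0.33 ± 0.41 (SD, n = 3 each). Without AA replicate 20 these changes were 0.43 for miR-181a minus miR-181b, 0.52 for miR-181a minus miR-181d, -0.27 for miR-181a minus miR-181c and 0.09 for miR-181b minus miR-181d.

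**Figure D3:**
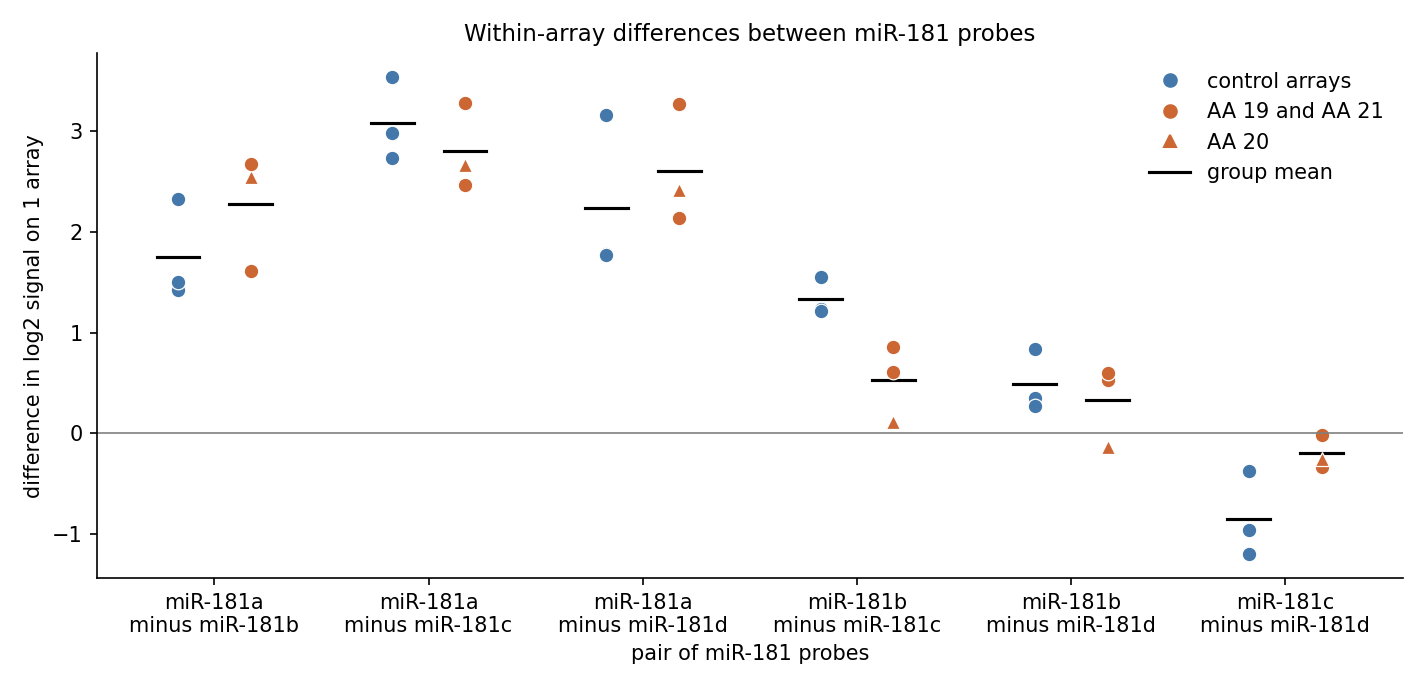
Difference in normalized log2 signal between 2 miR-181 probes on the same array (y axis) for the 6 pairs of members (x axis), with control in blue, AA in orange, AA 20 as a triangle and group means as black lines. The groups separate for miR-181b minus miR-181c, which is lower in AA, and for miR-181c minus miR-181d, which is higher in AA, but on AA 20 all probes except miR-181a were not well above background.

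The array also carried 12 probes of other species with the seed of the family, of which 11 were tested. The exception, hsa-miR-4262, stands 10 edits from the nearest member and was well above background on 0 arrays. Of the 11, 8 are the rat sequence with bases added to or taken from its 3′ end. A pair of others is shown because their targets are not rat miR-181 sequences, yet both were well above background on all 6 arrays.

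oan-miR-181c: aACAUUCAuuacugucggugggu
pma-miR-181b: gACAUUCAgugcugucggugggu

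Against rat miR-181b the first differs by G11A and the second by A1G and U9G. In the authors' table oan-miR-181c had intensities of 335 to 406 and pma-miR-181b of 54.0 to 316 over the 6 arrays. A probe with 1 or 2 mismatches thus still gave signal, and how much of each member's signal came from its paralogs was not tested.

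Among the 11 tested probes, 9 had an AA mean below control and 7 did so without AA replicate 20. Their log2 changes lay between -0.87 and 0.18, and 0 had an unadjusted p below 0.05 in limma. The probes built on the miR-181b or miR-181d sequence were ggo-miR-181b, mdo-miR-181b, cfa-miR-181b and ssc-miR-181d-5p. These had log2 changes of -0.24, -0.57, -0.52 and -0.51, and of -0.06, -0.38, -0.32 and -0.16 without AA replicate 20. The targets of oan-miR-181c, dre-miR-181c and pma-miR-181b are nearest to miR-181b but do not match it. In that order they had -0.03, -0.66 and -0.87, and 0.08, -0.31 and -0.53 without AA replicate 20. Those built on miR-181a or miR-181c were spread around 0, with 0.13 for bta-miR-181a, -0.49 for cfa-miR-181a, 0.18 for bta-miR-181c and -0.06 for cfa-miR-181c, and 0.50, -0.04, 0.76 and 0.36 in that order without AA replicate 20. The lowest was pma-miR-181b (limma adjusted p = 0.885). The bta-miR-181c value of 0.76, for rat miR-181c with 2 more bases, had a 95% interval of 0.09 to 1.43 (limma adjusted p = 0.511). The RNA is that of the same 6 rats, and 8 of these targets hold or lie inside a member's, so the probes are no independent measure. Near-identical probes could still differ. In the authors' table ggo-miR-181b was above miR-181b on every array, at 376 to 586 against 149 to 236 in control kidneys. On AA replicate 20 it was 345 against 19.2.

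**Figure D4:**
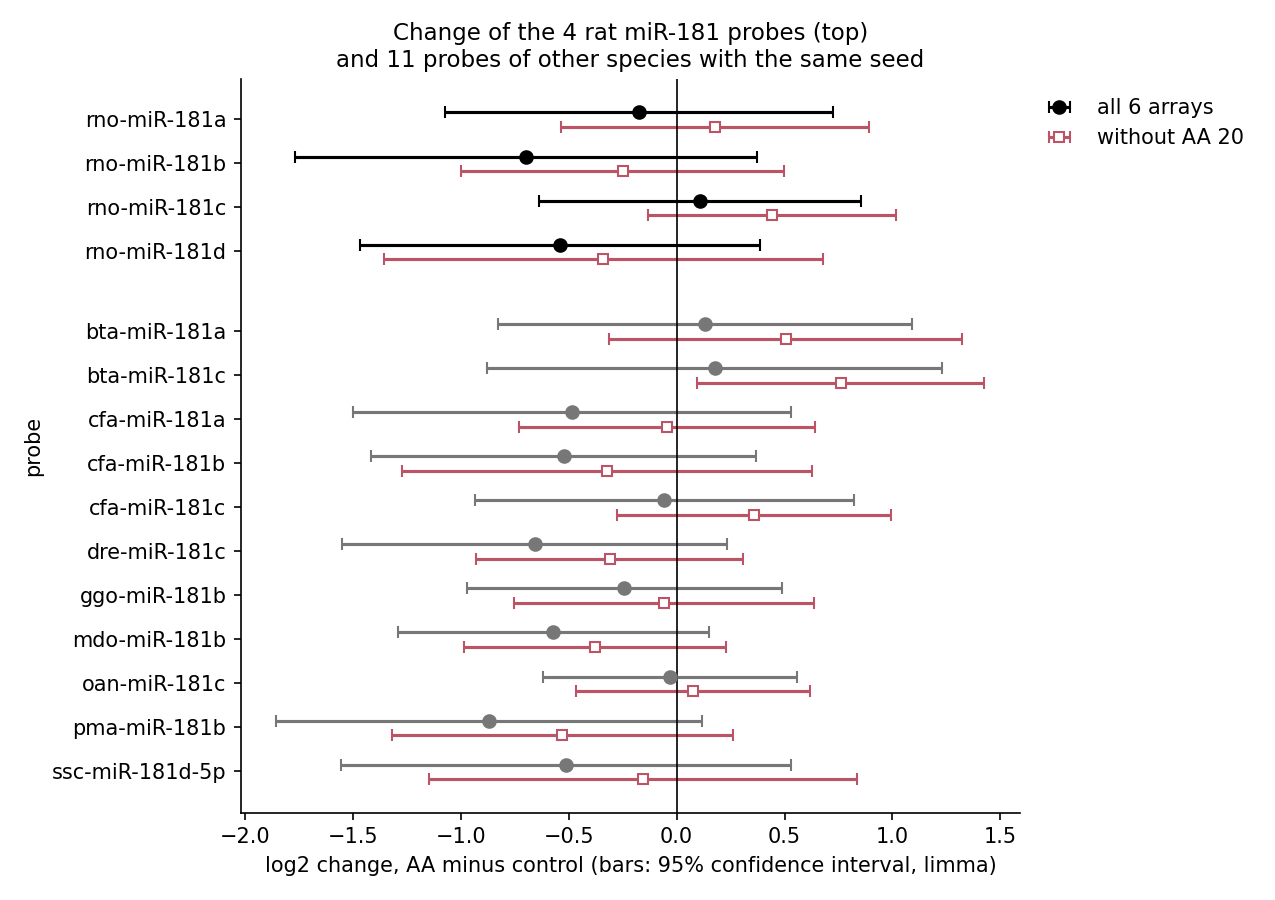
Log2 change from control to AA (x axis) with its 95% interval from limma for the 4 rat probes and the 11 tested probes of other species with the same seed (y axis), on all 6 arrays (filled circles) and without AA 20 (open squares). With all arrays every interval crosses 0, and leaving out AA 20 moves all 15 points to the right.

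The passenger strands, which are mostly degraded after the guide is loaded, gave almost no signal. Of the 6 rat miR-181 passenger probes 0 passed the filter for the test, and they were well above background in 3 of 36 probe and array pairs. Their signal above the empty spots reached at most 21.1 on the scanner scale, and 29.97 in the authors' table, for miR-181a-2* on control replicate 15.

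As a family, the members were lowest on AA replicate 20. The mean log2 signal of the 4 members was 8.16, 7.95 and 7.84 in control and 8.14, 6.99 and 7.84 in AA kidneys, in replicate order. Among 176 other tested rat-named probes, those most like it over the 6 arrays were miR-29c (Pearson r = 0.989), miR-30e (0.968) and miR-27a (0.951). miR-29c is known to repress collagens, and miR-30e is abundant in nephron epithelium. On AA replicate 20 they were at 6.48, 6.87 and 6.93, their lowest levels of the 6 arrays. Without that array r was 0.935, 0.758 and 0.282, and without the arrays farthest from the median, control replicate 13 and AA replicate 20, it was 0.969, 0.784 and 0.386. The arrays share their normalization and each probe is 1 point per rat, so these are descriptions.

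Other miRNAs of the family's known settings were counted in the same fit. Among haematopoietic miRNAs, 4 of 7 probes were tested, 2 with a higher and 2 with a lower AA mean, 0 passed, and the median log2 change was 0.13 against -0.05 for all tested probes. The lowest was miR-146a, a brake on NF-kappaB signalling, at -0.78 (limma adjusted p = 0.871), and the highest miR-146b at 0.76 (0.885). Of 7 probes for miRNAs tied to inflammation and NF-kappaB, all were tested, 4 were higher and 3 lower. Of these probes 0 passed, and the median was 0.03. They include both arms of miR-10a, with log2 changes of -0.27 (5p) and 0.03 (3p). miR-155, a member of both lists, had no rat-named probe and was not measured. At an unadjusted p below 0.05 in limma there were 3 of the 7 inflammation probes, against 4.95% of all tested probes. It was 1 of 4 haematopoietic and 1 of 11 kidney epithelium probes. The groups did not overlap in 3 of the inflammation, 1 of the haematopoietic and 3 of the kidney epithelium probes. Over all tested probes it was 9.98%. miR-146a and miR-146b are counted in both the haematopoietic and the inflammation list. The highest inflammation probe was miR-21, which is well known from injured kidney, at 1.56 (limma adjusted p = 0.885). Of 11 tested kidney epithelium probes 3 were higher and 8 lower, 0 passed, and the median was -0.19, from miR-194 at -0.82 to miR-200a at 0.58 (both limma adjusted p = 0.885). Without AA replicate 20, 0 passed in any of the lists. The counts of higher and lower were then 3 and 1 of the haematopoietic probes (median 0.34) and 6 and 1 of the inflammation probes (0.33). For the kidney epithelium probes they were 9 and 2 (0.25), so the balance of these probes turned with that array.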

How the data were processed

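Kidney small RNA from 3 control and 3 AA rats was tailed, tagged with Cy3 and hybridized, 1 array per rat. The authors deposited scanner files with the median pixel intensity of 15066 spots, linear and neither background-corrected nor normalized, and a table of normalized intensity, made by background subtraction and LOWESS. Here scanner intensity was corrected by normexp (offset 50) and quantile-normalized, control and empty spots were left out, and spots of a probe were averaged. The offset understates changes of dim probes. A probe was tested if it reached 32 on at least 1 array of the deposited table. AA was compared with control by limma 3.58.1 in R 4.3.3 (adjusted p threshold 0.05). Code was tested on simulated data. Groups came from the labels, which name no batch, slide or scan. The LOWESS reference is not stated in the sources used here. Members, lists, markers and tests were chosen with earlier results of these data known. The rules named every member with its values, the seed-sharing probes, the lowest and highest of each list and the 3 probes most like the family. Alternatives covered background correction, normalization, spot averaging, the filter, the test, array weights, the deposited values and leaving out each array.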

Additional observations from a re-analysis of the deposited data

How the results depend on the processing

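No member passed the adjusted threshold under any of the 18 alternatives. Of these, 13 gave another log2 change, since the filters, the other tests and the median over spots leave it as it is. miR-181b and miR-181d kept their sign in all 13, from -1.45 to -0.25 and from -1.22 to -0.23. The miR-181a change turned to 0.42 with array weights and to 0.18 without AA replicate 20 (leaving out each array in turn, -0.45 to 0.18). The miR-181c change turned to -0.15 with the empty-spot median subtracted, -0.14 on the deposited values and -0.11 without AA replicate 19 (-0.11 to 0.44). miR-181b minus miR-181d turned to 0.051 under cyclic loess, 0.022 without control replicate 15 and 0.089 without AA replicate 20 (-0.30 to 0.089). The causes were not tested. Over all tested probes, 2 calls became 0 with no normalization, with median scaling and under cyclic loess, 44 with array weights, and 0 to 3 when each array was left out, with 3 without AA replicate 20 and 0 without any other. The median change of all probes was 0.15 under median scaling, -0.32 with no normalization, -0.17 on the deposited values and -0.16 with the empty-spot median subtracted. Relative to it, miR-181c was above and miR-181b and miR-181d below in each of these 4. The planned fit with slide or scan as a block was left out, since the sources used here name neither. No paired analysis was possible because the groups share no replicate number.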
